A study of Mus musculus with 12 samples.

Results

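The Krüppel-like factor (KLF) genes studied were Klf2, Klf3, Klf4, Klf5, Klf6, Klf7, Klf9, Klf10, Klf11 and Klf13. They were followed through a short serum stimulation of mouse fibroblasts with control siRNA or with siRNA against Lap2. These 10 genes were taken by symbol from the 49671 genes counted in each library, and all 10 passed the filter on low counts, a count above 1 in at least 3 libraries, which 18668 genes passed. The RNA came from NIH 3T3, a fibroblast line that grew from mouse embryos and became immortal in culture, and gave 12 libraries in 4 groups with 3 replicates each. Cells transfected with control siRNA (a commercial negative control) or with a siRNA against Lap2 were sequenced in 0.3% FBS (serum-starved), or after 45 min of 15% FBS (serum-stimulated). Lap2, the lamina-associated polypeptide encoded by Tmpo, was targeted in all its isoforms together by 1 siRNA sequence, so that effects of that sequence and of the loss of Lap2 cannot be told apart. All cells carried a siRNA, and no untransfected cells were among the groups. The sources used here give no genotype other than the cell line, and do not say whether replicates came from separate cultures.

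KLF proteins bind GC-rich and CACCC-containing DNA through a C-terminal array of zinc fingers shared with the SP family, and they differ in the N-terminal parts that recruit other proteins. Klf2, Klf4, Klf5, Klf6 and Klf7 are mostly known as activators, with Klf4 able to repress as well, Klf3 as a repressor that recruits CtBP, and Klf9, Klf10, Klf11 and Klf13 as factors that bind the Sin3 corepressor. In fibroblasts several of them belong to the immediate-early genes, which growth factors and serum switch on within minutes without new protein synthesis, many through the serum response factor SRF. SRF binds a sequence called the CArG box and is helped by actin-controlled MRTF or ERK-controlled TCF coactivators.

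Total counts ranged from 18026298 to 26265253 per library, and no 2 libraries held identical counts (0 pairs). Replicate 1 of the serum-starved Lap2-depleted cells lay farthest from its group, with a median absolute log2 difference of 0.150 from its 2 partners over 10449 genes, against 0.0610 to 0.0964 for the other 11 libraries. Member results whose call changed without it are given with and without it. Values of the other gene lists and of the markers are given only with it. Tmpo, the target of the siRNA, had 2775, 2805 and 2885 normalized counts with control siRNA in 0.3% FBS, where Lap2-depleted cells had 982, 1175 and 1093. After stimulation it had 3264, 3243 and 3019 normalized counts in control and 767, 745 and 607 in Lap2-depleted cells. The target was thus lower in every Lap2 siRNA library, with a log2FC of -1.38 in 0.3% FBS (edgeR adjusted p = 8.73e-16) and -2.17 after serum (edgeR adjusted p = 3.77e-19). All 9 fibroblast markers averaged 100 or more normalized counts, and none of the 5 endothelial, 5 epithelial and 5 leukocyte markers did (0 of each list).

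The members lie on 10 chromosomes, at these positions of the authors' mm10 annotation: Klf2 at chr8:72319033-72321656 (+), Klf3 at chr5:64803388-64832901 (+), Klf4 at chr4:55527143-55532466 (-), Klf5 at chr14:99298691-99313405 (+), Klf6 at chr13:5861489-5870393 (+), Klf7 at chr1:64029447-64122282 (-), Klf9 at chr19:23141226-23166911 (+), Klf10 at chr15:38294413-38300707 (-), Klf11 at chr12:24651371-24662774 (+) and Klf13 at chr7:63886351-63938915 (-). In GENCODE M21, on the same assembly, exons of Klf7 share 3196 bases with the long noncoding gene Gm26649 on the opposite strand, and exons of Klf3 share 404 bases with Gm20033, also on the opposite strand. Whether counting used the strand of the reads is not given in the sources used here. These partners had mean counts of 18.8 and 95.2, beside 2889 for Klf7 and 2734 for Klf3.

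Promoter windows of RefSeq (GRCm38.p6), from 250 bases before to 50 bases after each start, were at hand for 8 of the 10 members, and those of Klf5 and Klf10 were not used here. These starts are not always the gene ends given above. The Klf7 window, chr1:64121340-64121639, lies wholly inside the gene, and the 250 bases before the Klf3 start, chr5:64803271-64803520, reach into Klf3. A GC box (GGGCGG on either strand) was found in 7 of the 8 windows, beside 35.7% of all 32851 promoters, and the window without it was that of Klf9. The shorter CACCC box (CACCC, either strand) was found in 5 of 8, beside 57.5% of all promoters. The AP-1 letters TGANTCA were found in Klf9 alone, at -89 to -83 from its start, beside 7.81% of all promoters. No window held the CArG box of SRF, the cAMP response element TGACGTCA or TATAAA (0 of 8 each), which 1.63%, 1.79% and 13.6% of all promoters held, and this says only that these letters are not in these windows. The members' windows held 58.3% to 77.7% G and C, against a median of 52.7% over all promoters. The 250 bases before the start are shown for 3 members with unlike responses. Klf9 rose with serum and after Lap2 depletion. Klf4 rose with serum and was lower after Lap2 depletion. Klf11 had the largest Lap2 effect among the members in 0.3% FBS, and little serum response. Capitals mark every match to the 6 motifs, which is the AP-1 match overlapping a CACCC box in Klf9 and GC boxes in Klf4 and Klf11, where some neighbouring matches overlap.
Klf9, chr19:23140976-23141225, + strand: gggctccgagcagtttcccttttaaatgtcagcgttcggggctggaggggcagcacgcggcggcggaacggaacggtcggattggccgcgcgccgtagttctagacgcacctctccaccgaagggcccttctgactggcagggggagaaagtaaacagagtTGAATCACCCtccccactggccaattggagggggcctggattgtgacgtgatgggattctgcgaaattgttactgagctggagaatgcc
Klf4, chr4:55532476-55532725, - strand: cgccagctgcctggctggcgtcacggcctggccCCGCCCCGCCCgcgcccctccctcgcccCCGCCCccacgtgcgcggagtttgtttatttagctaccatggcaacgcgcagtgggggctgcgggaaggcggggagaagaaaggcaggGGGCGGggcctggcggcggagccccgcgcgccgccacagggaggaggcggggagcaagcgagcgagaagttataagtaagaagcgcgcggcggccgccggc
Klf11, chr12:24651121-24651370, + strand: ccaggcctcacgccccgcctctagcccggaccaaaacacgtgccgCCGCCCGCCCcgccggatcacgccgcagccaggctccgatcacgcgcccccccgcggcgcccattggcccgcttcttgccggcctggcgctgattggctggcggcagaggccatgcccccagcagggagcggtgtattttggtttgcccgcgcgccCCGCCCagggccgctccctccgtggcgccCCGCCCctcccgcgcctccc

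Per kilobase of merged exons, Klf6 and Klf4 had the highest levels of the 10 members with control siRNA in 0.3% FBS, as did Klf6 and Klf10 after stimulation. The level of the 10 genes, summed as normalized counts per kilobase of merged exons, was 2029 ± 53.5 (SD, n = 3) before and 9219 ± 479 after serum with control siRNA. With Lap2 siRNA the sum was 1523 ± 92.8 before and 7612 ± 65.7 after serum (SD, n = 3). Single libraries gave 2006, 2090 and 1991 with control siRNA in 0.3% FBS, 1424, 1535 and 1608 with Lap2 siRNA in 0.3% FBS, 9597, 9379 and 8679.9 with control siRNA in 15% FBS, and 7627, 7668 and 7539.5 with Lap2 siRNA in 15% FBS. The summed level was therefore lower in each Lap2 siRNA library than in each control siRNA library of the same serum condition. For this single value an exact permutation test of 3 against 3 libraries cannot go below p = 0.1, and none is given.

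**Figure D1:**
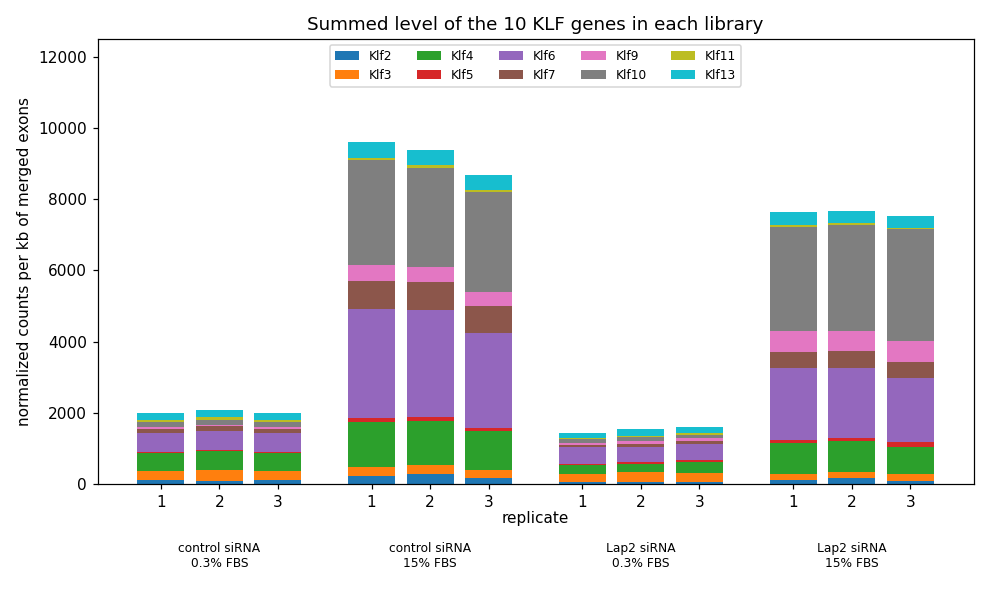
Summed level of the 10 KLF genes, in normalized counts per kilobase of merged exons (y axis), for each of the 12 libraries (bars, grouped by siRNA and serum), with a coloured segment for each gene. The bars stand near 2029 and 1523 in the serum-starved groups and near 9219 and 7612 in the stimulated groups, and the Klf10 segment is the one that grows from a thin band to the height of Klf6 or more.

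The make-up of this sum changed with serum. The shares rest on merged-exon lengths, and other lengths, treated below, would give other shares. Klf6 held 26.2% ± 0.64 of it in serum-starved and 31.5% ± 0.87 in serum-stimulated control siRNA treated cells (SD, n = 3), whereas in Lap2-depleted cells its share went from 30.3% ± 2.7 to 25.3% ± 1.2. Klf10 went from 6.26% to 30.9% with control siRNA and from 6.58% to 39.7% with Lap2 siRNA. The share of Klf4 fell from 25.3% to 12.9% and from 17.0% to 11.0% although its own level rose, and that of Klf3 fell from 13.8% to 2.71% and from 16.4% to 2.47%. Klf9 took 2.35% before and 4.66% after serum in control cells, and 4.83% before and 7.57% after serum in Lap2-depleted cells.

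By level per kilobase of merged exons, the order in serum-starved control siRNA treated cells was Klf6, Klf4, Klf3, Klf13, Klf10, Klf7, Klf2, Klf11, Klf9 and Klf5, in which the ranges of Klf6 and Klf4 and of Klf10 and Klf7 overlapped. In serum-stimulated control siRNA treated cells the order was Klf6, Klf10, Klf4, Klf7, Klf13, Klf9, Klf3, Klf2, Klf5 and Klf11, with overlaps between Klf6 and Klf10, Klf13 and Klf9, and Klf3 and Klf2. Serum-starved Lap2-depleted cells gave Klf6, Klf4, Klf3, Klf13, Klf10, Klf7, Klf9, Klf2, Klf5 and Klf11, with overlaps of Klf4 and Klf3, of Klf7 and Klf9, and of Klf9 and Klf2. In serum-stimulated Lap2-depleted cells Klf10 stood above Klf6 without overlap, followed by Klf4, Klf9, Klf7, Klf13, Klf3, Klf2, Klf5 and Klf11, of which Klf2 and Klf5 overlapped. These orders, and the sums and shares above, depend on the length used. This holds above all for Klf3, whose merged exons span 11243 bases and whose longest transcript spans 5221. The lengths come from GENCODE M21, whose ends of Klf5, Klf6, Klf9, Klf10 and Klf11 differ from those of the authors' annotation. For Klf10 the lower end is 38291463 in M21 and 38294413 in the authors' annotation. Lengths of these genes may thus hold bases that were not counted, and the effect of this on the levels was not tested. Per kilobase of the longest transcript, Klf3 ranked 1, Klf6 ranked 2 and Klf4 ranked 3 in both serum-starved groups. On that scale Klf10 ranked 1 and Klf6 ranked 2 in both stimulated groups, and Klf3 came to rank 5 in stimulated control cells, above Klf13 and Klf9. In Lap2-depleted cells Klf5 then ranked above Klf2 in both serum conditions, and Klf9 above Klf7 in 0.3% FBS.

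**Figure D2:**
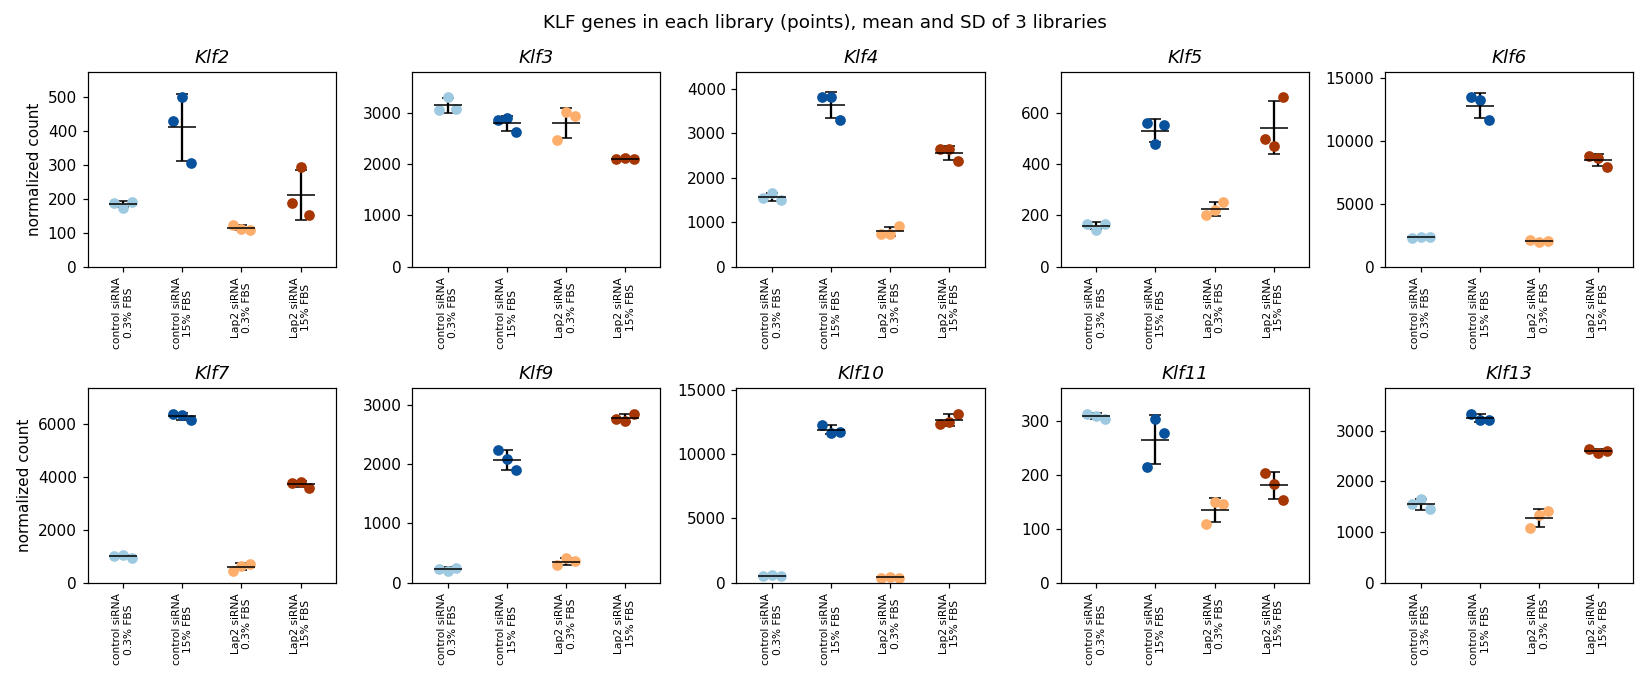
Normalized counts (y axes, linear and starting at 0, with their own range for each gene) of the 10 KLF genes in the 4 groups (x axes), with a point for each library and bars for the mean and SD of 3 libraries. Klf10 goes from 531 to 11888 with control siRNA and from 418 to 12633 with Lap2 siRNA, while Klf3 stays between 2103 and 3314.

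The first comparison asked which KLF genes belonged to the serum response of control siRNA treated cells. Of the 10 members, 8 rose and 0 fell, beside 15.6% of all tested genes called higher and 13.9% called lower, at an adjusted p under 0.05. The members called were all 5 activators (Klf2, Klf4, Klf5, Klf6, Klf7) and the Sin3-binding Klf9, Klf10 and Klf13, with log2FCs from 1.07 to 4.48. By edgeR, Klf3 and Klf11 were not called, with 1 of them (Klf3) lower at an unadjusted p under 0.05 and 0 members called lower by DESeq2. The median log2FC of the 10 members was 1.48, against -0.01 over all tested genes. The direction of calls over all genes depends on the scaling, since total counts gave 1632 genes higher and 5847 lower and upper-quartile factors 2183 and 3878, where TMM gave 2915 and 2597. Under scaling to total counts the median log2FC of all genes was shifted by -0.21 and the same 8 members still rose, while Klf3 (log2FC -0.38, edgeR adjusted p = 4.39e-05) and Klf11 (log2FC -0.43, edgeR adjusted p = 0.00673) were called lower.

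In Lap2-depleted cells serum raised 9 of the 10 members and lowered 1, Klf3, beside 18.3% of all tested genes called higher and 14.9% called lower. Klf3 (lower) and Klf11 (higher) were called here and not with control siRNA, and the median log2FC was again 1.48, against 0.00 over all genes. Without replicate 1 of the serum-starved Lap2-depleted cells, 8 members were called higher, since Klf11 dropped out, beside 3406 of all 18668 tested genes. Total counts gave 1658 genes higher and 5951 lower, and upper-quartile factors 2383 and 3942, in place of 3420 and 2777.

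**Figure D3:**
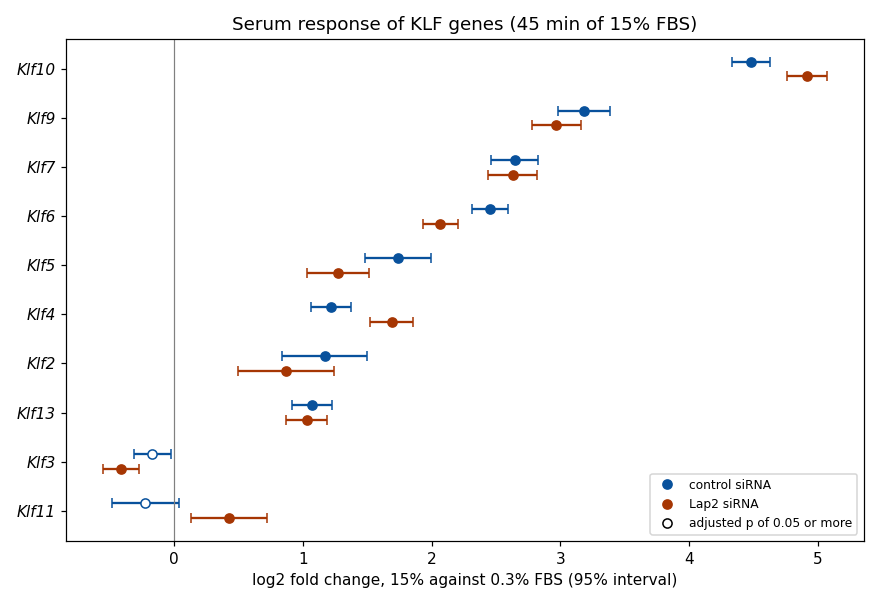
Log2 fold change of each KLF gene between 15% and 0.3% FBS (x axis) with control siRNA (blue) and Lap2 siRNA (red); points are edgeR estimates, lines their 95% intervals, and open points have an adjusted p of 0.05 or more. Klf10 lies at 4.48 and 4.92, Klf9 at 3.18 and 2.97, Klf3 at -0.17 and -0.41, and Klf11 at -0.22 and 0.43.

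The Lap2 comparisons asked how the same genes differed after Lap2 depletion in each serum condition. In 0.3% FBS, 7 members were lower and 2 higher in Lap2-depleted cells, beside 18.6% of all tested genes called lower and 17.8% called higher. The lower members were Klf2, Klf4, Klf6, Klf7, Klf10, Klf11 and Klf13 (log2FCs from -1.21 to -0.21), and the higher ones Klf5 and Klf9. Without replicate 1 of the serum-starved Lap2-depleted cells 6 members were lower, as Klf13 was no longer called, beside 3433 of all 18668 tested genes. In 15% FBS, 7 were lower and 1, Klf9, was higher, beside 12.1% and 11.4% of all tested genes. The lower members were Klf2, Klf3, Klf4, Klf6, Klf7, Klf11 and Klf13, with log2FCs from -0.98 to -0.32, and Klf5 and Klf10 were not called.

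The median log2FC of the members was -0.32 in 0.3% FBS and -0.46 in 15% FBS, against 0.01 and 0.02 over all tested genes. Scaling to total counts moved the median of all genes by 0.11 in 0.3% FBS and 0.09 in 15% FBS, and gave splits of 4692 genes higher and 2638 lower, and of 3471 and 1678, in place of 3330 and 3480, and of 2125 and 2250. Fibroblast markers moved with Lap2 siRNA as well. Their summed level was 834022 to 862306 normalized counts with control siRNA and 514115 to 621346 with Lap2 siRNA in 0.3% FBS, and 868563 to 953240 against 619302 to 691046 in 15% FBS. Of the 9 markers, 6 were lower and 2 higher in 0.3% FBS, beside 18.6% and 17.8% of all tested genes, and 7 were lower in 15% FBS, beside 12.1%. In these bulk samples fewer cells of a type and less RNA per cell cannot be told apart, and the part of such shifts in the KLF values was not tested. The endothelial, epithelial and leukocyte sums stayed at or below 37.6, 23.4 and 53.9 normalized counts in every library, and 0, 1 and 2 markers of these lists were at 0 in all libraries.

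**Figure D4:**
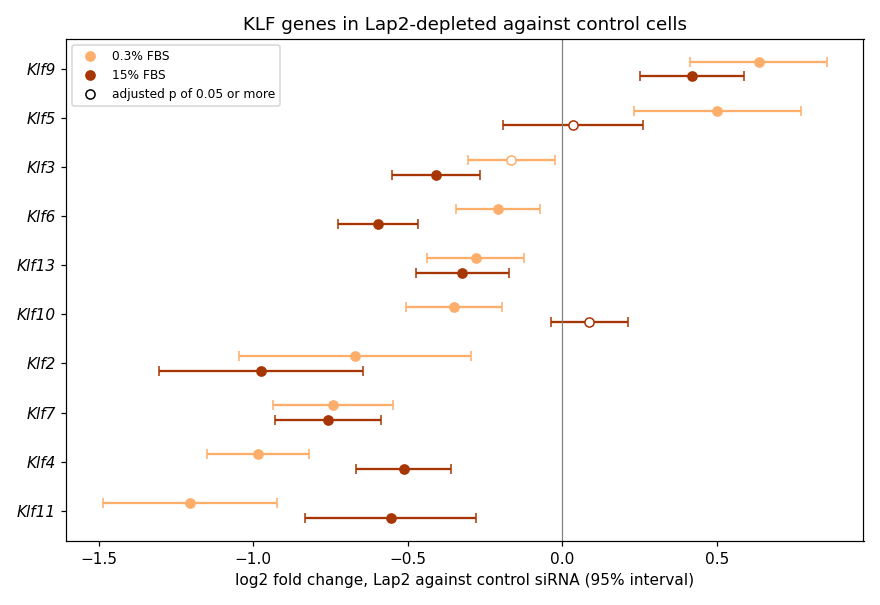
Log2 fold change of each KLF gene between Lap2 and control siRNA (x axis) in 0.3% FBS (light) and 15% FBS (dark), with edgeR estimates as points, 95% intervals as lines and open points for an adjusted p of 0.05 or more. Klf9 lies right of 0 in both serum conditions, Klf2, Klf4, Klf7 and Klf11 lie left of it in both, and Klf10 lies left at -0.35 in 0.3% FBS and at 0.09 in 15% FBS.

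Whether the serum response itself differed was tested as the difference between the 2 responses, Lap2 siRNA minus control siRNA. Depletion of the target was not equal in the 2 serum conditions. Tmpo fell with serum in Lap2-depleted cells (log2FC -0.62, edgeR adjusted p = 1.9e-07), and its own difference was -0.79 (edgeR adjusted p = 2.95e-06). The part of this in the members' differences was not tested. The response was larger in Lap2-depleted cells for 3 members, Klf4, Klf10 and Klf11, and smaller for 1, Klf6, beside 7.09% of all tested genes called higher and 6.51% called lower. The remaining 6 members were not called, which does not show equal responses. The widest of their 95% intervals was that of Klf2 (-0.81 to 0.20) and the narrowest that of Klf3 (-0.45 to -0.04). Without replicate 1 of the serum-starved Lap2-depleted cells the calls became 2 higher (Klf4, Klf10) and 4 lower, with Klf3 (log2FC -0.36, edgeR adjusted p = 0.000902), Klf5 (-0.57, 0.0125) and Klf9 (-0.37, 0.0229) joining Klf6. Calls over all 18668 tested genes rose as well without that library, to 1556 higher and 1975 lower from 1324 and 1216. The comparisons share groups, so each member's values are given side by side.

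Klf3 (ENSMUSG00000029178), the CtBP-recruiting repressor, was the member that fell with serum in Lap2-depleted cells. It had 3055, 3314 and 3091 normalized counts in serum-starved and 2872, 2910.0 and 2630 in serum-stimulated control siRNA treated cells. Lap2-depleted cells had 2484, 3019 and 2940 in 0.3% FBS, and 2103, 2124 and 2106 in 15% FBS. The stimulated Lap2-depleted libraries were lower than all others, and no groups compared overlapped. Serum gave a log2FC of -0.17 ± 0.07 (SE) with control siRNA (edgeR adjusted p = 0.0643) and of -0.41 ± 0.07 with Lap2 siRNA (edgeR adjusted p = 1.4e-05). Lap2 siRNA gave -0.17 in 0.3% FBS (edgeR adjusted p = 0.0608) and a called log2FC of -0.41 in 15% FBS (edgeR adjusted p = 3.07e-05). The serum value with control siRNA was also called lower under upper-quartile factors (-0.27, adjusted p = 0.00207), with filterByExpr (adjusted p = 0.0396) or a count above 1 in every library (adjusted p = 0.038) as the filter, in a fit of only those 2 groups (adjusted p = 0.0168), and without replicate 1 of the serum-starved Lap2-depleted cells (adjusted p = 0.0177). The Lap2 value in 0.3% FBS was -0.07 without that library (adjusted p = 0.427). It was called with the same 2 filters (adjusted p = 0.0392 and 0.0405), without replicate 2 of the serum-starved Lap2-depleted cells (-0.20, adjusted p = 0.0358) and without replicate 3 of the stimulated control cells (adjusted p = 0.0486). The difference between its responses, -0.24 (edgeR adjusted p = 0.104), was called by DESeq2 (-0.27, adjusted p = 0.0431).

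Klf6 (ENSMUSG00000000078), a widely expressed activator, had the highest mean level per kilobase of merged exons in 3 of the 4 groups (rank 2 in all 4 per kilobase of the longest transcript), and its serum response was smaller in Lap2-depleted cells. Control siRNA treated cells had 2298, 2346 and 2346 normalized counts when starved, and 13468, 13231 and 11642 when stimulated. Its normalized counts with Lap2 siRNA were 2087, 1924 and 2036 in 0.3% FBS, and 8797, 8637 and 7932 in 15% FBS. All stimulated Lap2-depleted libraries stayed below all stimulated control ones. The rise was 5.48-fold with control siRNA (log2FC 2.46 ± 0.07, SE, edgeR adjusted p = 6.88e-25) and 4.19-fold with Lap2 siRNA (2.07 ± 0.07, edgeR adjusted p = 1.08e-22), and the difference of -0.39 ± 0.09 passed the test (edgeR adjusted p = 0.00329). The Lap2 effect was -0.21 in 0.3% FBS (edgeR adjusted p = 0.0128) and -0.60 after serum (edgeR adjusted p = 7.6e-09). The smaller of these was not called under scaling to total counts (-0.10, adjusted p = 0.265), without replicate 3 of the serum-starved control cells (-0.19, adjusted p = 0.0589) or without replicate 2 of the serum-starved Lap2-depleted cells (-0.16, adjusted p = 0.095).

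Klf7 (ENSMUSG00000025959), closely related to Klf6, was lower in Lap2-depleted cells in both serum conditions. It was found at 1007, 1059 and 952 normalized counts in starved control cells and at 454, 644 and 713 in starved Lap2-depleted cells. Stimulation brought 6405, 6346 and 6144 normalized counts in control and 3772, 3819 and 3589 in Lap2-depleted cells. The 454 of the library that stands apart was the lowest of all, but no groups overlapped with or without it. Serum raised Klf7 6.26-fold (log2FC 2.65 ± 0.09, SE, edgeR adjusted p = 3.52e-22) and 6.19-fold (2.63 ± 0.09, edgeR adjusted p = 1.41e-21), with a difference of -0.02 (95% interval -0.27 to 0.24, edgeR adjusted p = 0.963), and of -0.21 (adjusted p = 0.0795) without the library that stands apart. Lap2 siRNA lowered it with a log2FC of -0.74 ± 0.10 in 0.3% FBS (edgeR adjusted p = 1.01e-07, and -0.55 without replicate 1) and of -0.76 ± 0.08 in 15% FBS (edgeR adjusted p = 1.59e-08).

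Klf4 (ENSMUSG00000003032), known for its part in reprogramming to pluripotency and for growth arrest, was lower after Lap2 depletion, most clearly before serum. Serum-starved control cells gave 1543, 1651 and 1495 normalized counts, and serum-starved Lap2-depleted cells 733, 734 and 903. The stimulated values were 3806, 3807 and 3285 in control and 2635, 2642 and 2365 in Lap2-depleted cells. Every Lap2-depleted library lay below every control library of its serum condition. Lap2 siRNA lowered Klf4 1.98-fold in 0.3% FBS (log2FC -0.99 ± 0.08, SE, edgeR adjusted p = 9.35e-12) and 1.43-fold in 15% FBS (-0.51 ± 0.08, edgeR adjusted p = 3.13e-06). Serum raised it 2.32-fold with control siRNA (edgeR adjusted p = 8.75e-15) and 3.22-fold with Lap2 siRNA (edgeR adjusted p = 6.03e-18), and the difference of 0.47 ± 0.11 passed the test (edgeR adjusted p = 0.00292). The stimulated level stayed lower in Lap2-depleted cells although the fold was larger, since it started from 790.2 ± 98.0 and not from 1563 ± 79.7 normalized counts (SD, n = 3).

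Klf2 (ENSMUSG00000055148), a relative of Klf4 best known from endothelium, was among the less abundant members and the most variable after serum. It had 186, 173 and 191 normalized counts in starved and 429, 499.5 and 304 in stimulated control siRNA treated cells. The Lap2-depleted libraries held 124, 111 and 109 when starved and 186, 293 and 152 when stimulated. The stimulated libraries spread more widely than the starved ones, and the groups compared did not overlap. Serum raised Klf2 2.25-fold with control siRNA (log2FC 1.17 ± 0.16, SE, edgeR adjusted p = 5.19e-07) and 1.82-fold with Lap2 siRNA (0.87 ± 0.18, edgeR adjusted p = 0.000296). Its Lap2 effect was -0.67 ± 0.18 in 0.3% FBS (edgeR adjusted p = 0.00381) and -0.98 ± 0.16 after serum (edgeR adjusted p = 2e-05), and the difference of -0.30 between the responses did not pass (edgeR adjusted p = 0.492). Single stimulated libraries moved these values. Without replicate 2 of the stimulated Lap2-depleted cells the rise with Lap2 siRNA was 0.55 (adjusted p = 0.0164) and the difference -0.62 (adjusted p = 0.0724), and the difference was -0.11 without replicate 3 of that group. Without replicates 2 and 3 of the stimulated control cells in turn, the difference was -0.14 and -0.48.

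Klf5 (ENSMUSG00000005148), a growth-promoting activator, had more mRNA after Lap2 depletion in starved cells, unlike the other 4 activators. Its normalized counts were 168, 144 and 166 in starved control cells and 201, 222 and 253 in starved Lap2-depleted cells. After serum they were 560, 480 and 551 in control and 497, 469 and 661 in Lap2-depleted cells. The starved groups did not overlap and the stimulated ones did, and no other member had overlapping groups in any of the 4 comparisons. Lap2 siRNA raised Klf5 1.42-fold in 0.3% FBS (log2FC 0.50 ± 0.13, SE, edgeR adjusted p = 0.00282) and gave 0.04 in 15% FBS (95% interval -0.19 to 0.26, edgeR adjusted p = 0.883). Serum raised it 3.34-fold (edgeR adjusted p = 1.83e-13) and 2.41-fold (edgeR adjusted p = 1.76e-10), with a difference of -0.47 that did not pass (edgeR adjusted p = 0.0723). That difference was called with the replicate number as a block (-0.47, adjusted p = 0.0338), with any count as the filter (adjusted p = 0.0322), and without replicate 3 of the stimulated Lap2-depleted cells (-0.64, adjusted p = 0.00612).

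Klf10 (ENSMUSG00000037465), known as a TGF-beta inducible early gene, rose most of the 10 in both siRNA conditions. It had 503, 571 and 520 normalized counts in starved control cells, and 12288, 11649 and 11726 after serum. Lap2-depleted cells had 402, 450.4 and 401 before serum, and 12301, 12452 and 13146 after it. The Lap2-depleted libraries were all below the controls before serum and all above them after it, then by a narrow margin of 12288 to 12301. The rise was 22.3-fold with control siRNA (log2FC 4.48 ± 0.07, SE, edgeR adjusted p = 3.76e-31), which placed Klf10 at rank 87 of the 18668 tested genes by log2FC. With Lap2 siRNA it was 30.3-fold (4.92 ± 0.08, edgeR adjusted p = 9.32e-32), at rank 35. The difference of 0.44 ± 0.10 passed the test (edgeR adjusted p = 0.00183). Lap2 siRNA lowered Klf10 in 0.3% FBS with a log2FC of -0.35 ± 0.08 (edgeR adjusted p = 0.000367), and its value in 15% FBS was 0.09 (95% interval -0.04 to 0.21, edgeR adjusted p = 0.354), which total-count scaling turned into a call (0.17, adjusted p = 0.034).

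Klf9 (ENSMUSG00000033863), a target of glucocorticoid and thyroid hormone receptors, was the member with more mRNA in Lap2-depleted cells in both serum conditions. Starved cells had 239, 195 and 252 normalized counts with control siRNA, below the 295, 411 and 359 of Lap2-depleted cells. Stimulated cells had 2239, 2077 and 1897 with control siRNA, below the 2750.4, 2723 and 2849 of Lap2-depleted cells. In each serum condition all Lap2-depleted libraries lay above all control libraries. Lap2 siRNA raised it 1.55-fold in 0.3% FBS (log2FC 0.64 ± 0.11, SE, edgeR adjusted p = 1.42e-05) and 1.34-fold in 15% FBS (0.42 ± 0.08, edgeR adjusted p = 0.000197). Serum raised it 9.09-fold with control siRNA (edgeR adjusted p = 2.33e-23) and 7.84-fold with Lap2 siRNA (edgeR adjusted p = 5.79e-23), and the difference of -0.21 did not pass (edgeR adjusted p = 0.355). Its promoter window, printed above, is the one of the 8 with an AP-1 match and without a GC box, which is a description of the letters only.

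Klf11 (ENSMUSG00000020653), a close relative of Klf10, was the member with the largest Lap2 effect in 0.3% FBS. It had 313, 308 and 303 normalized counts in starved control cells, against 108, 149 and 145 in starved Lap2-depleted cells. With serum it had 215, 303 and 277 normalized counts in control and 203, 183 and 154 in Lap2-depleted cells. The starved Lap2-depleted libraries were the lowest of all, and the groups compared did not overlap, those with control siRNA by less than 1 normalized count. Lap2 siRNA lowered Klf11 2.31-fold in 0.3% FBS (log2FC -1.21 ± 0.14, SE, edgeR adjusted p = 1.16e-08), and 1.47-fold in 15% FBS (-0.56 ± 0.14, edgeR adjusted p = 0.00236). Serum gave -0.22 ± 0.13 with control siRNA (edgeR adjusted p = 0.214) and raised it by 0.43 ± 0.15 with Lap2 siRNA (edgeR adjusted p = 0.0231), with a difference of 0.65 ± 0.19 (edgeR adjusted p = 0.0214). The rise in Lap2-depleted cells was not called under total-count scaling (0.19, adjusted p = 0.309), under upper-quartile factors (0.32, adjusted p = 0.0981), or without replicate 1 of the starved (0.27, adjusted p = 0.172) or replicates 1 (0.33, adjusted p = 0.134) or 2 (0.41, adjusted p = 0.0642) of the stimulated Lap2-depleted cells. The difference was not called when any 1 of 5 libraries was left out, among them replicate 1 of the starved Lap2-depleted cells (0.48, adjusted p = 0.0708) and replicate 1 of the stimulated control cells (0.51, adjusted p = 0.0895).

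Klf13 (ENSMUSG00000052040), known as a regulator of the chemokine RANTES in T lymphocytes, moved in the same directions as Klf7, with smaller values. It had 1547, 1656 and 1448 normalized counts in starved control cells and 1081, 1343 and 1411 in starved Lap2-depleted cells. Stimulated libraries had 3342, 3210 and 3217 in control and 2641, 2559 and 2611 in Lap2-depleted cells. The Lap2-depleted libraries were lower in each condition, with a narrow gap of 1411 to 1448 in 0.3% FBS. Serum raised it 2.10-fold (log2FC 1.07 ± 0.08, SE, edgeR adjusted p = 1.34e-13) and 2.04-fold (1.03 ± 0.08, edgeR adjusted p = 6.95e-13). Lap2 siRNA lowered it with a log2FC of -0.28 ± 0.08 in 0.3% FBS (edgeR adjusted p = 0.00395) and of -0.32 ± 0.07 in 15% FBS (edgeR adjusted p = 0.00117). The value in 0.3% FBS was not called under total-count scaling (-0.17, adjusted p = 0.0813) or without replicate 1 of the starved Lap2-depleted cells (-0.16, adjusted p = 0.0536). The difference between its responses was -0.04 (95% interval -0.26 to 0.18, edgeR adjusted p = 0.861).

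The other 16 KLF and SP genes gave a background for the family. Of these, 11 passed the filter, and Klf14, Klf15, Klf17, Sp5 and Sp8 did not. Serum raised 3 and lowered 1 of the 11 with control siRNA, beside 15.6% and 13.9% of all tested genes, and raised 4 and lowered 1 with Lap2 siRNA, beside 18.3% and 14.9%. The largest rise was that of Klf16, with 711, 632 and 627 normalized counts in starved and 3033, 3144 and 2940 in stimulated control siRNA treated cells. The log2FC of Klf16 was 2.21 (edgeR adjusted p = 9.74e-23) with control siRNA and 2.32 (edgeR adjusted p = 3.32e-23) with Lap2 siRNA. Sp2 rose by 0.43 and 0.33, Sp3 fell with -0.60 and -0.26, Klf12 rose by 0.58 with control siRNA, and Sp1 and Sp4 rose by 0.19 and 0.38 with Lap2 siRNA.

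With Lap2 siRNA, 2 of the 11 were lower in 0.3% FBS, beside 18.6% of all tested genes, and 3 were higher and 1 lower in 15% FBS, beside 11.4% and 12.1%. Sp3 was lower in 0.3% FBS (log2FC -0.26). Its difference between the serum responses, 0.34, was the 1 difference called (edgeR adjusted p = 0.023), beside 7.09% of all tested genes called higher and 6.51% called lower. Klf8 was also called lower in 0.3% FBS, from 2.0, 6.1 and 7.6 normalized counts to 0 in all 3 libraries, a range of few reads in which no fold is given. In 15% FBS Klf16 (0.19), Sp4 (0.41) and Sp6 (1.95) were called higher and Klf12 (-0.53) lower, of which Sp6 had group means of only 3.18 to 12.9 normalized counts.

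Among 16 genes for cofactors, upstream regulators and ubiquitin ligases of KLF proteins, all of which were tested, serum raised 6 and lowered 1 with control siRNA, beside 15.6% and 13.9% of all tested genes, and raised 6 and lowered 3 with Lap2 siRNA, beside 18.3% and 14.9%. Mapk7 encodes ERK5, a kinase known to drive Klf2 and Klf4 transcription through MEF2 factors. Whether ERK5 had a part in the Klf2 and Klf4 values was not tested. Mapk7 had 2245, 2189 and 2111 normalized counts in starved control cells, and 1095, 1205 and 1110.4 in starved Lap2-depleted cells. With serum it had 1861, 1859 and 1824 normalized counts in control and 1414, 1430.4 and 1407 in Lap2-depleted cells. All Lap2-depleted libraries were lower, with a log2FC of -0.94 in 0.3% FBS (edgeR adjusted p = 1.38e-13) and -0.38 after serum (edgeR adjusted p = 2.47e-05). Of the 16 genes, 1 (Mapk7) was called in 15% FBS, beside 12.1% of all tested genes called lower and 11.4% called higher. Serum lowered it with control siRNA (-0.24) and raised it with Lap2 siRNA (0.32), a difference of 0.56 (edgeR adjusted p = 3.65e-05). The difference between the responses was called higher for 3 of the 16 genes (Mapk7, Hdac2 with 0.39 and Kat2b with 0.37). It was called lower for 1 (Mef2c), beside 7.09% of all tested genes called higher and 6.51% called lower.

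Of the 3 MEF2 genes of the list, Lap2 siRNA raised Mef2a (log2FC 0.28) and Mef2c (0.67) in starved cells. The value of Mef2d there was 0.10 (edgeR adjusted p = 0.272), and that of Map2k5, also of the list, 0.002 (edgeR adjusted p = 0.997). Serum raised Mef2a by 0.83 and 0.70 and Mef2d by 0.95 and 0.93, with control and Lap2 siRNA in turn. Mef2c rose by 0.76 with control siRNA and had -0.19 (edgeR adjusted p = 0.353) with Lap2 siRNA, a difference of -0.95 (edgeR adjusted p = 0.00113). In starved cells, beside 17.8% of all tested genes called higher and 18.6% called lower, 4 genes of the list were higher (Mef2a, Mef2c, Sin3a with 0.25 and Ep300 with 0.26) and 3 lower (Mapk7, Hdac1 with -0.21 and Hdac2 with -0.45). Starved control and Lap2-depleted libraries overlapped for Mef2a and Ep300. Replicate 1 of the starved Lap2-depleted cells lay apart for Ep300, with 2410 normalized counts against 3306 and 3227. The corepressor gene Sin3a and the acetyltransferase genes Ep300 and Crebbp fell with serum in Lap2-depleted cells, with log2FCs of -0.34, -0.32 and -0.21, where the libraries overlapped for Crebbp. Hdac1, Hdac2 and the acetyltransferase gene Kat2b rose there by 0.24, 0.35 and 0.73. With control siRNA, serum raised Kat2b by 0.36, Sin3b by 0.19 and the ubiquitin ligase gene Wwp1 by 0.40.

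The gene outside the KLF family with the most similar course was sought for each member, by Pearson's r of log2 CPM over the 12 libraries among the 10439 genes that averaged 100 or more normalized counts. The 12 libraries fall into 4 groups and share their depth and composition, so r is given as a description. The pairs were Klf10 with Fosb (r = 0.999), a subunit of AP-1, Klf6 with Actb (0.998), the gene of beta-actin, Klf13 with Samd4b (0.998), Klf7 with the kinase gene Prkx (0.997) and Klf9 with Tatdn2 (0.997). Klf4 followed the kinase gene Sik1 (0.991), Klf5 the histone methyltransferase gene Dot1l (0.988), Klf3 the DNA demethylation gene Tet3 (0.979), Klf11 the calcium channel subunit gene Cacng7 (0.977) and Klf2 followed Tbl2 (0.954).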

How the data were processed

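RNA-seq was made from rRNA-depleted total RNA of 12 NIH 3T3 libraries with a directional kit. The authors aligned the reads to mm10 with TopHat2 at default settings, counted them over genes with HTSeq, and the raw counts of 49671 Ensembl genes were deposited, and their processing notes name DESeq2 for their own comparison. Versions, the annotation and the strand setting of the counting are not given in the sources used here. A symbol was found for 99.3% of the identifiers.

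From the deposited counts, the 18668 genes counted more than 1 time in 3 or more libraries were tested in R 4.3.3 with edgeR 4.0.16: TMM factors, glmQLFit and glmQLFTest with a mean for each of 4 groups, and Benjamini-Hochberg adjustment over all tested genes, at 0.05. Adjusted p-values in the text are from this fit unless another setting is named. Normalized counts are counts over the TMM-scaled library size, brought to the mean of these sizes. Intervals are at 95%. Levels between genes were compared per kilobase of merged exons (GENCODE M21). The fit was tested on simulated counts of 18668 genes, and recovered 99% to 100% of 200 genes changed by a log2FC of 1, with 10 to 18 unchanged genes called. The changed genes averaged 100 or more counts and went up and down in equal numbers. Smaller effects, rarer transcripts and widespread or one-sided changes, on which the scaling depends, were therefore not covered.

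All 10 members were named, with the siRNA target, the called genes of 2 lists (other KLF and SP genes; cofactors, regulators and ligases), markers of cell types, and the gene most like each member. The members and lists were chosen with earlier results of these data known. The labels number replicates 1 to 3 in each group. Same-numbered libraries of different groups did not deviate together (correlations from -0.12 to 0.10, 0 of 18 over 0.1), so no pairs were assumed. P-values measure the spread between these libraries, which may be technical. Alternatives were DESeq2 1.42.0, other scalings and filters, a fit of 2 groups, the replicate block, a threshold of 0.01, and each library left out. Python 3.11.15, pandas 2.3.3, numpy 2.4.6 and matplotlib 3.10.9 were used for annotation and plots. The study's other assays were not used here.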

Additional observations from a re-analysis of the deposited data

Results flagged for a closer look

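The serum response of 4 KLF genes differed between control siRNA treated and Lap2-depleted cells by the edgeR test of the difference itself. Of the 10 members, 3 were called higher and 1 lower, beside 7.09% and 6.51% of all tested genes. The difference (Lap2 siRNA minus control siRNA, log2 scale) was 0.65 for Klf11, 0.47 for Klf4, 0.44 for Klf10 and -0.39 for Klf6. Their adjusted p-values over the 18668 tested genes were 0.0214, 0.00292, 0.00183 and 0.00329. Klf4, Klf10 and Klf6 kept their call without each of the 12 libraries in turn, and Klf11 did not. Single values far from their group were not sought gene by gene, as groups of 3 libraries are too small for that rule.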

How the results depend on the processing

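Over 50 values, the 10 members in 5 comparisons, 1040 alternatives were computed, of which 997 kept direction and call, 18 lost the call, 19 gained it and 6 changed sign. Of the 1040, 600 left out a library, in many cases one of neither group compared, where an estimate can hardly move. A threshold of 0.01 kept the estimates and could only lose calls. The 997 is therefore a count and no measure of how firm the values are. The 6 changes of sign came from leaving out a library, in values not called either way: Klf5 in 15% FBS (-0.04 without replicate 2 of the stimulated control cells, -0.14 without replicate 3 of the stimulated Lap2-depleted cells), and the difference between the responses of Klf7 and Klf13. With a library left out, Klf5 in 15% FBS ranged from -0.14 to 0.13, and these differences from -0.21 to 0.092 for Klf7 and from -0.18 to 0.0046 for Klf13. For serum with control siRNA, 0 members were called lower by edgeR, against 2 under total counts, 1 under upper-quartile factors, 1 with filterByExpr (13987 genes), 1 with a count above 1 in every library (13884 genes), 1 in the fit of 2 groups, and 0 to 1 with a library left out. In 15% FBS, 1 member was called higher with Lap2 siRNA, against 2 under total counts, beside 2125 and 3471 of all tested genes. For the difference between the responses, 1 member, Klf6, was called lower, beside 1216 of all tested genes. DESeq2 gave 2 with Klf3, beside 1462 genes. Any count (24824 genes) and the replicate block each gave 2 with Klf5. With a library left out it was 1 to 4. Without replicate 1 of the starved Lap2-depleted cells it was 4, beside 1975 genes, and without replicate 3 of the stimulated Lap2-depleted cells 2, again with Klf5. The cause was not tested. The replicate block changed no other member count, and 3 of 12 libraries correlated best with their own number. Over all genes, a threshold of 0.01 gave 1345 genes higher with Lap2 siRNA in 15% FBS in place of 2125, and 758 and 756 differences in place of 1324 and 1216, and without replicate 1 of the starved Lap2-depleted cells 1975 differences were lower. Depth and 3 libraries a group gave the members' 2-group log2FCs standard errors of 0.06 to 0.18.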
